A study of Mus musculus with 7 samples.

Results

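The pentraxin, C1q-like and cerebellin synapse organisers are secreted or surface proteins that act in the cleft between neurons, and 10 of their genes were followed here through bulk RNA-seq of the mouse medial amygdala. They are the long pentraxin genes Nptx1, Nptx2 and Nptxr, the C1q-like genes C1ql1, C1ql2 and C1ql3, the cerebellin genes Cbln1, Cbln2 and Cbln4, and the neuritin gene Nrn1. Members were taken from the deposited table by gene name, 10 of its 55414 genes, and each name matched 1 row. All 10 passed the low-count filter that kept 20420 genes for testing. The list was chosen by reading the male against female values of these same libraries, so every male against female value below is a description and supports nothing.

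The animals were Trap-Ai9 mice, written TRAP2-Ai9 in the design text, in which the Fos gene drives a tamoxifen-dependent Cre that leaves a red fluorescent reporter in cells active at the time of the drug. All animals carried these alleles, received tamoxifen and were killed at 2 months, 3 females dosed at 6 weeks (1.5 months in the sample titles) and 4 males dosed at postnatal day 24. Sex, age at tamoxifen and the interval after it therefore cannot be told apart. The design text names day 24 alone, and no group without tamoxifen was analysed here. Each dissected piece was sequenced whole, not sorted. It included an area of labelled cells with the submitters' name DIMPLE, which made up 20 to 25% of the piece in females and 18 to 40% in males.

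Long pentraxins assemble into complexes at excitatory synapses, where they gather AMPA-type glutamate receptors. Nptx1 and Nptx2 are secreted, whereas the product of Nptxr is held in the membrane and anchors the complex. C1q-like proteins bind the adhesion receptor encoded by Adgrb3. Cerebellins bridge presynaptic neurexins to receptors on the postsynaptic side, best known at the parallel fibre synapse of the cerebellum, and the Cbln4 protein also binds Dcc and Neo1. Nrn1 encodes a small lipid-anchored protein, first found as an activity-induced gene, that promotes growth of dendrites and axons.

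Male replicate 1 had the fewest counts, 29049604, and male replicate 3 the most, 46494588. The medial amygdala markers Esr1, Cyp19a1 and Lhx6 and the GABA synthesis genes Gad1 and Gad2 were detected in every library, with Cyp19a1, the aromatase gene, at 17.8 to 34.5 CPM, the counts divided by each library's TMM-adjusted total. All 7 listed medial amygdala markers together summed to 872 to 1087 CPM in females. In male replicates 1 to 4 they summed to 1162, 1008, 619 and 643 CPM, lowest in replicates 3 and 4, and 1 of the 7 had a higher mean in males. Choroid plexus genes summed to 14692 CPM in male replicate 3 and to 27.5 to 300 CPM in the other libraries, with all 5 listed genes detected in the series and Ttr alone at 13618 CPM in male replicate 3. Avp, a hypothalamic peptide gene, stood at 265 CPM in female replicate 3 and at most 13.1 CPM elsewhere. In bulk tissue fewer cells of a type and less RNA per cell cannot be told apart.

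The 10 genes fell into a group with higher mean values in males, led by Nrn1 and Nptx1 and followed by C1ql3, C1ql2, Nptxr and C1ql1, and a group of the cerebellins and Nptx2 without such a pattern. For 5 of the 10, Nptx1, C1ql1, C1ql2, C1ql3 and Nrn1, every male library lay above every female library, as it did for 2.54% of all genes tested. No member lay wholly lower in males, a pattern that 2.78% of genes showed. By edgeR's quasi-likelihood test with Benjamini-Hochberg adjustment over all 20420 genes, 0 of the 10 passed at 0.05, against 0.0245% of all genes (0.0196% higher and 0.0049% lower in males), and the lowest adjusted p was 0.503. Without adjustment, 6 of the 10 had p under 0.05 in edgeR, against 4.71% of all genes. DESeq2 called 2, Nptx1 and Nrn1, both higher in males, against 0.491% of its 18937 genes called higher, 0.153% called lower and 0.644% in either direction, and gave 6 members an unadjusted p under 0.05 against 6.85%. The 6.85% is 1298 genes set over those 18937. The 1298 may include genes outside the 18937, so 6.85% is an upper bound of that share. The median log2 fold change, male over female, was 0.81 over the 10 members and 0.015 over all genes tested.

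**Figure D1:**
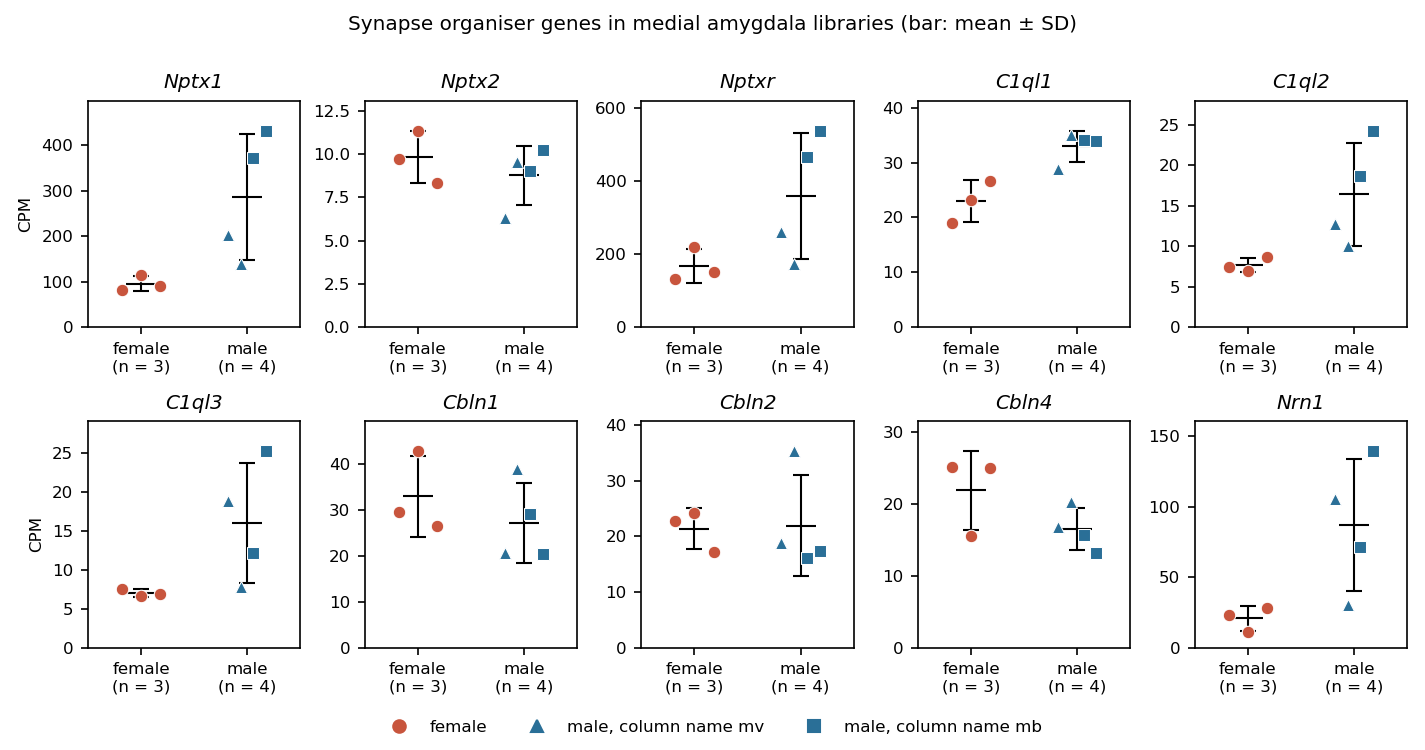
CPM of the 10 genes (vertical axis, each panel from 0) in the 3 female and 4 male libraries (horizontal axis), 1 point per library, with the mean ± SD as a bar and the marker shape giving the prefix of the table's column name. Males sit above females in the panels of Nptx1, C1ql1, C1ql2, C1ql3 and Nrn1, and the groups overlap in the other 5.

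Among the long pentraxins, the secreted Nptx1 and the membrane-bound Nptxr shared a profile that Nptx2 did not have. Nptx1 (ENSMUSG00000025582, chromosome 11, 119429545 to 119438579, minus strand, GRCm39) stood at 82.8, 114 and 89.7 CPM in female replicates 1 to 3 and at 202, 139, 370 and 432 CPM in male replicates 1 to 4. The male libraries were all above the female ones, and the highest, male replicates 3 and 4, are those whose columns the authors named mb, while the other males' columns begin with mv, prefixes the labels do not explain. Means were 95.5 ± 16.4 CPM (SD, n = 3) for females and 286 ± 138 CPM (SD, n = 4) for males, with a log2 fold change of 1.58 ± 0.37 (SE, edgeR adjusted p = 0.503). Against the mb males alone, where 0.184% of genes were called higher, the estimate was 2.08 ± 0.21 (edgeR adjusted p = 0.0142), and against the mv males alone 0.82 ± 0.26 (edgeR adjusted p = 0.989). The range over the 15 alternative edgeR settings was 0.0142 to 0.9999, with the mb comparison the only setting under 0.05, and DESeq2 gave 0.00762.

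Nptxr (ENSMUSG00000022421, chromosome 15, 79670552 to 79688967, minus strand) stood at 132, 220 and 152 CPM in females and at 260, 172, 466 and 538 CPM in males. Male replicate 2 lay below female replicate 2, so the groups overlapped, and the mb males were again the highest. The means were 168 ± 46.3 CPM (SD, n = 3) and 359 ± 171 CPM (SD, n = 4), and the log2 fold change was 1.10 ± 0.38 (SE, edgeR adjusted p = 0.858). It was 1.58 ± 0.25 against the mb males and 0.34 ± 0.30 against the mv males.

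Nptx2, the activity-induced pentraxin also known as Narp (ENSMUSG00000059991, chromosome 5, 144482712 to 144494288, plus strand), was the least abundant of the 3. Its values were 9.74, 11.4 and 8.34 CPM in females and 6.32, 9.53, 9.01 and 10.2 CPM in males. The groups overlapped throughout, with male replicate 1 the lowest library and female replicate 2 the highest, and the log2 fold change was -0.16 ± 0.23 (SE, edgeR).

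Shares of counts within a family do not depend on library scaling. Nptx1 made up 36.9, 33.0 and 35.8% of the counts of the 3 pentraxin genes in females and 43.1, 43.4, 43.8 and 44.1% in males, and the widest 95% Wilson interval of such a share spanned 1.86 percentage points, which covers counting error only. The male shares were close to each other while the male CPM of Nptx1 ranged from 139 to 432. Nptxr made up 61.1 ± 2.52% of them over the 3 females and 54.8 ± 0.80% over the 4 males (SD), and Nptx2 3.65 ± 0.60% and 1.61 ± 0.92%. These shares compare the same groups as the CPM and carry no test.

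The C1q-like genes C1ql2 and C1ql3 were higher in every male, with male replicate 2 close to the females, while C1ql1 differed less and was steadier among males. C1ql2 (ENSMUSG00000036907, chromosome 1, 120268312 to 120270903, plus strand), known from hippocampal mossy fibre terminals, stood at 7.46, 6.96 and 8.63 CPM in females and 12.7, 10.1, 18.7 and 24.3 CPM in males. Its log2 fold change was 1.10 ± 0.30 (SE, edgeR adjusted p = 0.647), with 1.49 ± 0.23 against the mb and 0.55 ± 0.26 against the mv males. C1ql3 (ENSMUSG00000049630, chromosome 2, 13008268 to 13016617, minus strand), known from excitatory neurons of the cortex and amygdala, stood at 7.54, 6.59 and 6.94 CPM in females and 18.8, 7.77, 12.2 and 25.3 CPM in males.

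The gap between the lowest male and the highest female was small for C1ql3, 7.77 against 7.54 CPM, and its log2 fold change was 1.19 ± 0.36 (SE, edgeR adjusted p = 0.774). C1ql1 (ENSMUSG00000045532, chromosome 11, 102830090 to 102837514, minus strand), known from climbing fibre neurons that project to the cerebellum, stood at 19.1, 23.1 and 26.6 CPM in females and 28.8, 35.1, 34.1 and 33.9 CPM in males. Here male replicate 2 was the highest library rather than the lowest male, and the column name made little difference (log2 fold changes of 0.57 ± 0.21 against the mb and 0.46 ± 0.24 against the mv males, and 0.52 ± 0.17 against all 4). C1ql1 supplied 56.0 to 63.1% of the C1q-like counts in females. Among males its share was lowest in replicate 4, at 40.6%, and highest in replicate 2, at 66.3%.

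The RefSeq promoter table (GRCm38.p6, 250 bases before to 50 after the gene start) matched 3 members, C1ql2, C1ql3 and Cbln4. All 3 matched members are shown, and no relation of their sequences to their profiles was tested. Capitals mark matches on either strand to a GC box (GGGCGG) or to an E-box of the kind NeuroD factors bind (CAGATG), and the full cyclic AMP response element (TGACGTCA) was searched as well. In Cbln4 the pair of GC-box matches overlap. The sequences run 5′ to 3′ on the gene's strand, at chr1:120340332-120340631 (plus) for C1ql2, chr2:13010815-13011114 (minus) for C1ql3 and chr2:172043417-172043716 (minus) for Cbln4.
C1ql2: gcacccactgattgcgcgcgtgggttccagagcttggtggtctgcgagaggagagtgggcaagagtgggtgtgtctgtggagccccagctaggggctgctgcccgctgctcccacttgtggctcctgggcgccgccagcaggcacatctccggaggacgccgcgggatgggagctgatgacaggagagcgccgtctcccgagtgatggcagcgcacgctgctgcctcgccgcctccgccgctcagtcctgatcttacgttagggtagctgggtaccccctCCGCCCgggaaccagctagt
C1ql3: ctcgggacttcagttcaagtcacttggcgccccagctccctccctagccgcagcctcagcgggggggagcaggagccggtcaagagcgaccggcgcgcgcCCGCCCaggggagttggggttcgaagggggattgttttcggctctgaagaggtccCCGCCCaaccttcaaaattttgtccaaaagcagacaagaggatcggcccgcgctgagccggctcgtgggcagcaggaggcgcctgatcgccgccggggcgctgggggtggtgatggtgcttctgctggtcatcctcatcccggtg
Cbln4: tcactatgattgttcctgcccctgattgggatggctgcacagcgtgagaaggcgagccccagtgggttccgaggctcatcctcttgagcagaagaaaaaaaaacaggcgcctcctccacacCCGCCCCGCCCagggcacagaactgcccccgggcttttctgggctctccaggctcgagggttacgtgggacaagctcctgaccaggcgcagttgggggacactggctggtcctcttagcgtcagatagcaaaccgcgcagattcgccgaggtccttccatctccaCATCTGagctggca
GC boxes matched 1 time in C1ql2, 2 times in C1ql3 and 2 times in Cbln4, and 35.7% of the 32851 promoters in the table hold at least 1. The E-box matched in Cbln4 alone of the 3, and 17.2% of promoters hold it. None of the 3 windows held the cyclic AMP response element, which 1.79% of promoters hold. G and C made up 67.3% of the window of C1ql2, 66.3% of that of C1ql3 and 60.3% of that of Cbln4.

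The male and female ranges overlapped for every cerebellin. The lowest library was a male for all 3, and the highest was a female for Cbln1 and Cbln4 and a male for Cbln2. Cbln1 (ENSMUSG00000031654, chromosome 8, 88195033 to 88199237, minus strand), the founding member in cerebellar granule cells, stood at 29.6, 42.96 and 26.4 CPM in females and 20.5, 38.9, 29.1 and 20.5 CPM in males. Female replicate 2 and male replicate 2 were its highest libraries. Cbln2 (ENSMUSG00000024647, chromosome 18, 86729235 to 86736408, plus strand), expressed across many forebrain neurons, stood at 22.7, 24.2 and 17.2 CPM in females and 18.7, 35.4, 16.0 and 17.4 CPM in males. Male replicate 2 stood apart at the top, and the other males lay between 16.0 and 18.7 CPM, within or just under the female range.

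Cbln4 (ENSMUSG00000067578, chromosome 2, 171878153 to 171885386, minus strand), expressed in cortex by somatostatin interneurons, stood at 25.1, 15.5 and 24.9 CPM in females and 16.7, 20.2, 15.6 and 13.2 CPM in males. Its lowest value was in male replicate 4, and female replicate 2 lay among the males. By log2 fold change the males differed by -0.27 ± 0.27 (SE) for Cbln1, 0.04 ± 0.29 for Cbln2 and -0.41 ± 0.23 for Cbln4 by edgeR, all at an adjusted p of 0.9999. The Cbln2 estimate changed sign without male replicate 2, to -0.30, without female replicate 3, to -0.10, and against the mb males alone, to -0.35. With percent DIMPLE as a covariate the estimates for Cbln1 and Nptx2 also changed sign, to 0.013 and 0.017, and those for Nrn1 and C1ql3 were 1.37 ± 0.52 and 0.74 ± 0.39 (SE) in place of 2.05 and 1.19. Within the family, Cbln1 held 42.9 ± 7.84% of counts over the 3 females and 41.5 ± 4.70% over the 4 males (SD).

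Nrn1 (ENSMUSG00000039114, chromosome 13, 36909335 to 36919105, minus strand) varied most of the 10, by 12.6 times between its highest and lowest library. It stood at 23.1, 11.1 and 28.4 CPM in females and at 106, 30.3, 71.5 and 140 CPM in males. All males were above all females, though male replicate 2 exceeded female replicate 3 by little, and male replicates 4 and 1 were highest. The means were 20.9 ± 8.89 CPM (SD, n = 3) and 86.8 ± 46.9 CPM (SD, n = 4), and the log2 fold change was 2.05 ± 0.50 (SE, edgeR adjusted p = 0.539). Male replicate 1, an mv library, lay between the mb males for Nrn1. For Nptxr that library, at 260 CPM, lay below both mb males, though above every female. The Nrn1 estimates were 2.34 ± 0.41 against the mb and 1.68 ± 0.50 against the mv males, although no test of that difference was made. DESeq2 gave an adjusted p of 0.00208, and the 15 alternative edgeR settings ranged from 0.0252 to 0.9999.

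**Figure D2:**
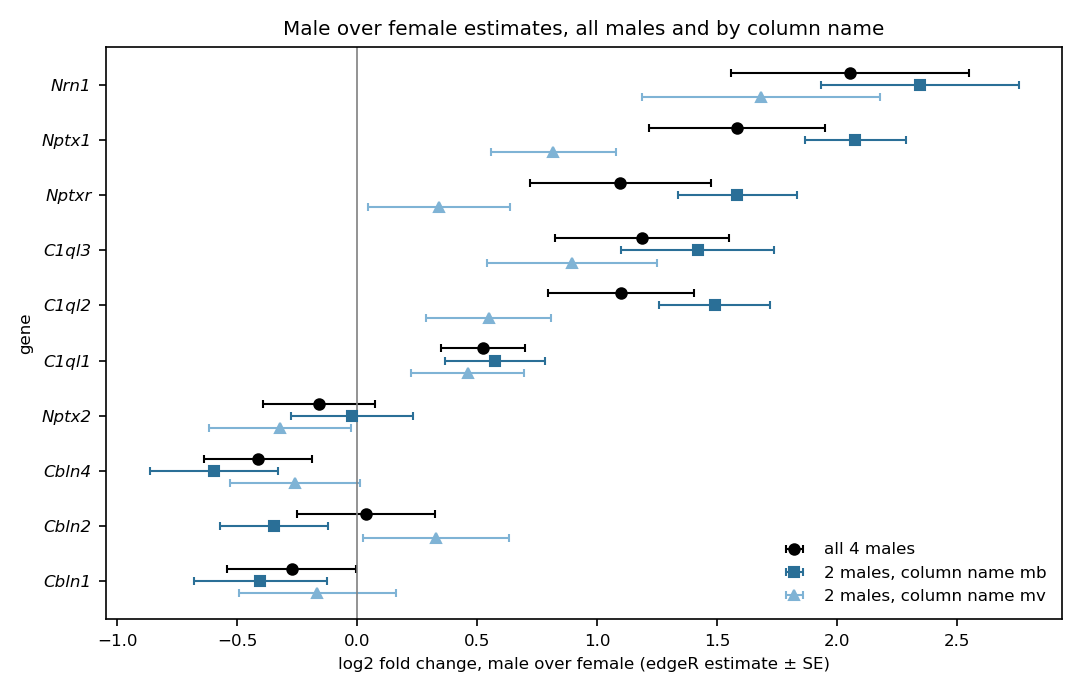
Log2 fold change, male over female (horizontal axis, edgeR estimate ± SE), of the 10 genes against all 4 males, the 2 males with mb columns and the 2 with mv columns. For Nptx1 and Nptxr the mb estimates (2.08 and 1.58) stand right of the mv estimates (0.82 and 0.34), while for C1ql1 they are close (0.57 and 0.46).

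In the authors' deposited table, which gives female over male, 2 of the 10 genes were marked at an adjusted p under 0.1, against 0.364% of its 28808 genes marked as higher in males. The authors' deposited table lists Nptx1 at a log2 fold change of -1.58 with an adjusted p of 0.0117 and Nrn1 at -2.06 with 0.00327. C1ql2 (0.119), C1ql3 (0.178), Nptxr (0.432) and C1ql1 (0.677) were not marked in the authors' deposited table. Both fits start from the same counts, so the table is no second measurement.

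Markers of pallial glutamatergic neurons, the excitatory neurons of cortex and cortex-like amygdala, were higher in sum in the males, mostly through Slc17a7. The first group of genes was higher in males as well. Of the 14 listed markers, all tested and none at 0 in all libraries, 10 had a higher mean in males. All 14 together summed to 443 to 512 CPM in females and to 916, 532, 804 and 1331 CPM in male replicates 1 to 4, a ratio of means of 1.91. Slc17a7, the vesicular glutamate transporter that defines these cells, differed more than the sum and stood at 48.8, 55.9 and 88.7 CPM in females and 405, 145, 442 and 793 CPM in males. Its means were 64.5 CPM in females and 446 CPM in males, against 468 and 896 CPM for the sum. Most of the rise of the sum was thus in Slc17a7. The other markers were not summed apart, so a rise of the list beyond Slc17a7 is not shown. Ratios to the sum share this limit. The 9 GABAergic markers summed to 1916 to 2573 CPM in females and 1295 to 2116 CPM in males. Divided by the summed pallial markers, Nptxr stood at 0.363 ± 0.116 over the 3 females and 0.398 ± 0.131 over the 4 males (SD), C1ql2 at 0.0164 ± 0.00061 and 0.0186 ± 0.0038, and C1ql3 at 0.0151 ± 0.0017 and 0.0173 ± 0.0029. C1ql1 turned direction on that scale, with a male over female ratio of means of 0.845 against 1.44 in CPM. The ratio was 0.515 for Nptx2, 0.514 for Cbln1, 0.648 for Cbln2 and 0.458 for Cbln4. The groups overlapped for all 10 genes on that scale except Nrn1, whose ratio was 0.0440 ± 0.0166 in females and 0.0915 ± 0.0254 in males. Its gap was narrow, 0.0555 in female replicate 3 against 0.0570 in male replicate 2.

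For Nptx1 the male over female ratio of means was 2.99 in CPM and 1.54 per summed pallial marker, and for Nrn1 4.16 and 2.08. Slc17a7 differed by more than either gene, so these ratios hold for the summed list and not for Slc17a7 alone. Division by Slc17a7 alone was not made. The division by the summed list was chosen after the values were seen, and the part of the pallial markers in the differences was not tested beyond it. Oligodendrocyte markers were also highest in an mb library, at 9040 CPM in male replicate 3 against 1502 to 3900 CPM in the others, and their part was not tested. Without female replicate 3 and male replicate 3, the libraries with the most hypothalamic and choroid plexus RNA, the estimates were 1.39 for Nptx1, 0.88 for Nptxr and 2.42 for Nrn1, and 5 members again did not overlap.

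**Figure D3:**
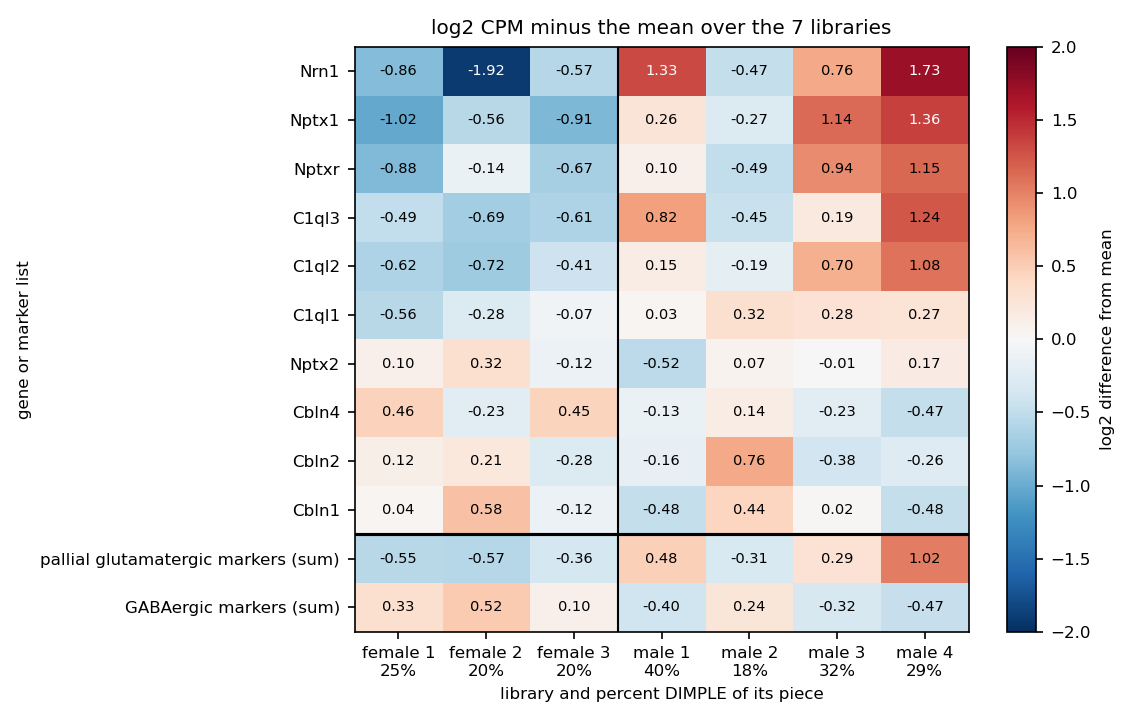
Log2 CPM of each gene (rows) in each library (columns, with the percent DIMPLE of its piece) minus its mean over the 7 libraries, with the summed pallial glutamatergic and GABAergic markers below the line. Nrn1, Nptx1, Nptxr, C1ql3 and C1ql2 are highest in male replicate 4, as is the pallial sum, whereas Cbln1 and Cbln4 are lowest there, Cbln1 at 20.5 CPM as in male replicate 1.

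The likeness of profiles was measured as the root mean square difference of log2 CPM, each gene centred on its own mean over the 7 libraries. Of the 45 pairs of members the closest were Nptx1 and Nptxr (0.24), Cbln1 and Cbln2 (0.29) and Nptxr and C1ql2 (0.30), and the farthest were Cbln1 and Nrn1 (1.55). Outside the members, the genes closest to Nrn1 were the transcription factor gene Bhlhe22 (0.18), the Wnt enhancer gene Rspo3 (0.21) and the thyroid hormone-binding protein gene Crym (0.23). Closest to Nptx1 were the potassium channel gene Kcnc4 (0.17), the cofactor gene Zfpm2 (0.20) and the Wnt antagonist gene Frzb (0.22). Closest to Nptxr were Pdzrn3 (0.16), the purinergic receptor gene P2rx5 (0.16) and the semaphorin gene Sema3a (0.16). These are descriptions over 7 libraries that share tissue and dissection.

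Activity-induced genes were examined beside Nptx2 and Nrn1, both of which neuronal activity is known to induce. Fos stood at 13.9, 4.12 and 9.95 CPM in females and 9.87, 4.72, 6.01 and 32.5 CPM in males, and Arc at 28.1, 16.3 and 27.8 and at 24.5, 16.0, 23.5 and 67.7 CPM. The 15 immediate early genes summed to 700 CPM in male replicate 4 and to 258 to 374 CPM in the other libraries. Nptx2, at 10.2 CPM in male replicate 4, lay inside the range of the other libraries there, while Nrn1 was at its maximum. The part of activity in these values was not tested.

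Per kilobase of exon (GENCODE M21 gene models on GRCm38, since the annotation behind the counts is not given in the sources used here) the members' levels could be ordered. By mean log2 level the order was Nptxr, Nptx1, C1ql1, Nrn1, Cbln1, Cbln2, Cbln4, C1ql2, C1ql3 and Nptx2. Nptxr stood at 53.6 ± 31.1 CPM per kilobase (SD, n = 7), Nptx1 at 39.1 ± 27.1, C1ql1 at 19.5 ± 4.16, Nrn1 at 26.0 ± 21.6 and Cbln1 at 9.78 ± 2.82. Cbln2 stood at 7.49 ± 2.34, Cbln4 at 6.46 ± 1.64, C1ql2 at 6.35 ± 3.26, C1ql3 at 4.79 ± 2.86 and Nptx2 at 3.63 ± 0.63 CPM per kilobase.

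Of the 9 neighbouring pairs in that order, 0 differed at an adjusted p under 0.05 in a two-sided exact permutation test over sign flips of the 7 within-library differences, and 4 had an unadjusted p under 0.05. The order came from these same 7 libraries, so the pairs and their direction were picked from the tested values. The p-values are given as a description, and after adjustment a pair could pass only if several others had a low p as well. The adjusted p was 0.0703 for Nptxr over Nptx1 and for Cbln1 over Cbln2, each higher in 7 of 7 libraries at the smallest p the design allows, 0.0156. It was also 0.0703 for Nptx1 over C1ql1 and for C1ql2 over C1ql3, each higher in 6 of 7 libraries (exact p = 0.0312). The mean log2 differences of these 4 pairs were 0.54 ± 0.26 (SD), 0.39 ± 0.31, 0.76 ± 0.74 and 0.45 ± 0.38. C1ql1 and Nrn1 differed by 0.03 ± 1.13, and their order changed with the length used and with leaving out single libraries. Cbln4 and C1ql2 differed by 0.13 ± 0.97 and changed places without female replicate 1 and without female replicate 3. C1ql3 was above Nptx2 in 3 of 7 libraries.

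**Figure D4:**
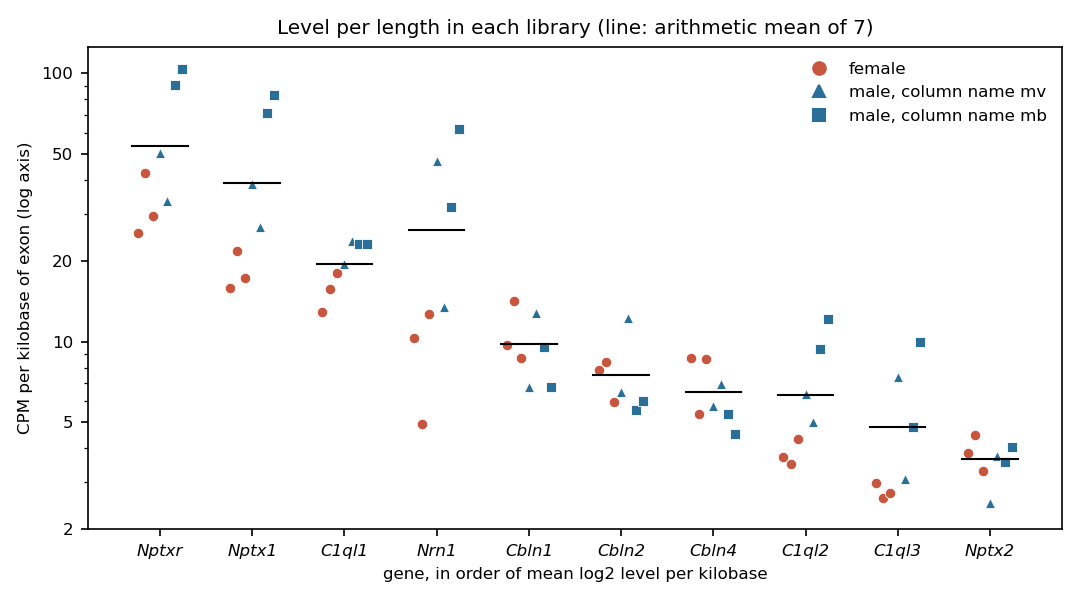
CPM per kilobase of exon (vertical log axis) of the 10 genes in order of their mean log2 level (horizontal axis), 1 point per library and a line at the arithmetic mean of the 7. Nptxr and Nptx1 lead at means of 53.6 and 39.1, Nptx2 is last at 3.63, and the libraries of Nrn1 spread from 4.93 to 62.2.

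Related genes outside the list were low. Raw counts never exceeded 34 per library for C1ql4, Cbln3, Nrn1l, Ptx3, Apcs and Crp, and C1ql4, the remaining C1q-like gene, had 0 to 7 counts. Cbln3, which in the cerebellum pairs with Cbln1, had 3 to 24 counts. Ptx4 reached 71 to 200 counts, and 3 of these 7 relatives, Cbln3, Ptx3 and Ptx4, passed the low-count filter.

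The receptors and partners of these proteins lay about evenly on both sides of 0. Of 15 listed partner genes, all tested, 0 passed in edgeR. Male over female estimates were above 0 for 7 and below 0 for 8, and the median log2 fold change was -0.068 against 0.015 over all genes. Among those of lowest p were the neurexin gene Nrxn3 (log2 fold change -0.31 ± 0.25, SE) and the kainate receptor gene Grik4 (0.26 ± 0.23). Gria2, the AMPA receptor subunit that limits calcium entry, stood at 842 ± 113 CPM in females and 855 ± 89.0 in males, and Adgrb3 at 117 ± 26.3 and 106 ± 9.76.

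Of 42 other synapse organiser genes, all tested, 0 passed in edgeR and 3 had an unadjusted p under 0.05, and estimates were above 0 for 18 and below 0 for 24, with a median of -0.035. Lowest in p were the glypican gene Gpc4 (log2 fold change -0.79 ± 0.27, SE), the matrix gene Sparc (-0.51 ± 0.20) and the growth factor gene Fgf22 (-0.71 ± 0.29), with edgeR adjusted p-values of 0.835, 0.928 and 0.966.

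The last comparison asked how levels changed with the percent DIMPLE in the piece, as a slope per 10 percentage points with sex in the model. By edgeR 0 of the 10 members and 0% of the 20420 genes passed, 0 also passed in DESeq2, and at an unadjusted p under 0.05 edgeR gave 1 member, Cbln2, against 4.54% of all genes, and DESeq2 gave 1 other, Nrn1, against 2.58%. The 2.58% is over 40076 genes, so it cannot be set beside the 6.85% of DESeq2 for male against female, which is over 18937. Slopes were positive for Nrn1 (0.74 ± 0.39, SE), C1ql3 (0.50 ± 0.29), Nptx1 (0.23 ± 0.37), Nptxr (0.22 ± 0.39) and C1ql2 (0.16 ± 0.29). They were negative for Cbln2 (-0.41 ± 0.18), Cbln1 (-0.39 ± 0.18), Nptx2 (-0.24 ± 0.19), C1ql1 (-0.16 ± 0.14) and Cbln4 (-0.08 ± 0.18), and the edgeR adjusted p-values lay between 0.897 and 0.944.

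Male replicate 2 was the library whose piece held the least DIMPLE, at 18%. Without it the slope changed sign for 7 of the 10 genes, to -0.95 for Nptx1, -1.003 for Nptxr, -0.70 for C1ql2, -0.13 for C1ql3, -0.093 for Nrn1, 0.14 for Cbln2 and 0.33 for Cbln4. Cbln1 kept a negative slope in all 11 alternative edgeR settings, between -0.45 and -0.24, and Nptx2 between -0.53 and -0.014. Of the 15 partner genes 13 had a negative slope, with a median of -0.14, and of the 42 other organisers 33, with a median of -0.13. Over all genes 51.6% of slopes were positive, with a median of 0.0097. The counts for these lists were not repeated without male replicate 2. None of these genes passed in edgeR. Among the partners of lowest p were Nrxn3 (-0.29 ± 0.18) and Gria3 (-0.19 ± 0.15), and among the organisers Fgf7 (0.93 ± 0.43), Adgrl2 (-0.36 ± 0.18) and Ptprf (-0.39 ± 0.22).

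**Figure D5:**
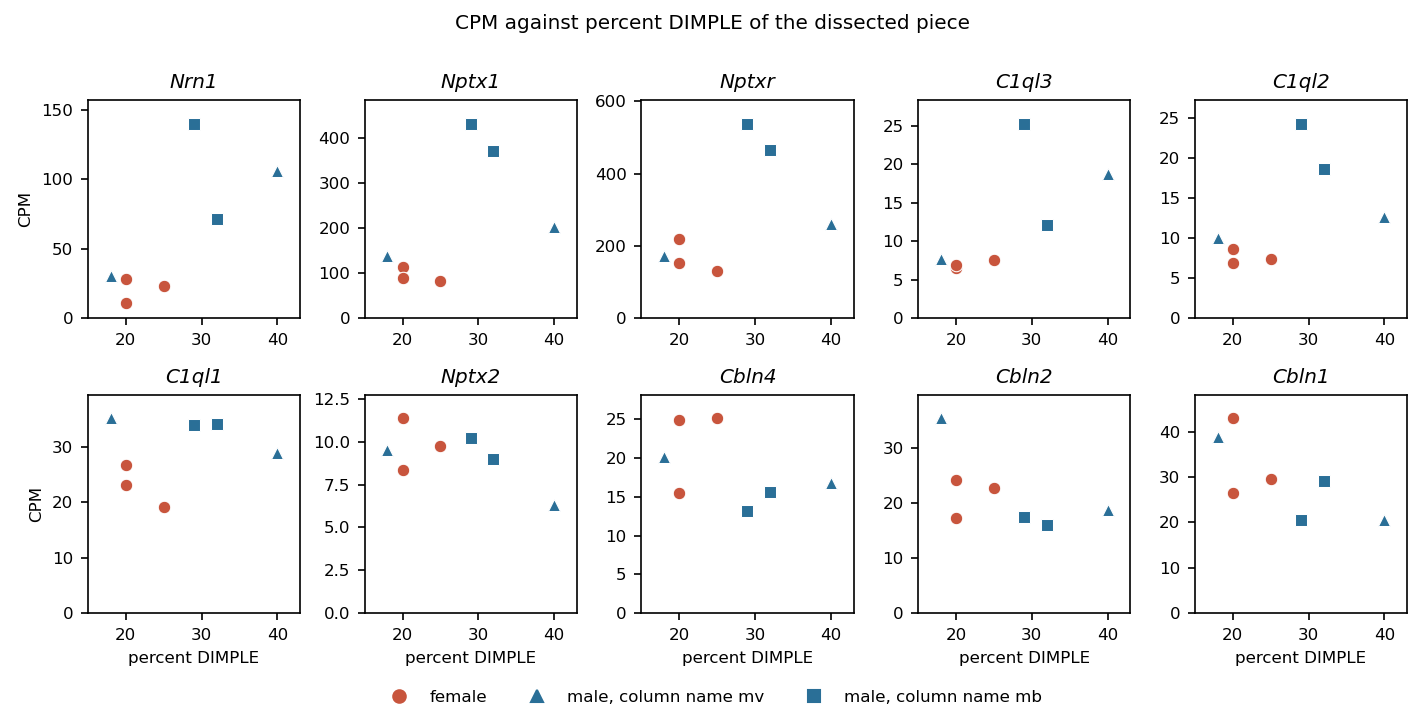
CPM of the 10 genes (vertical axis, each panel from 0) against the percent DIMPLE of the piece (horizontal axis), 1 point per library. Nptx1, Nptxr, C1ql2, C1ql3 and Nrn1 peak at 29% in male replicate 4 and not at 40% in male replicate 1, and Cbln2 is highest at 18% in male replicate 2.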

How the data were processed

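The members and gene lists were chosen with earlier results of these data known. The submitters' processing notes name the build GRCm39, TopHat2 2.2.1, DESeq2 1.26.0, HTSeq 2.0.1 and cutadapt. Aligner settings, strand setting and annotation are not given in the sources used here, so reads of overlapping genes may be assigned uncertainly. The authors deposited raw counts per gene and library, per the file headers. Normalized counts, a signal made by dividing counts by the authors' size factors, their log2 fold changes, their p-values and a Wald score stand in the same deposited table, per the file headers.

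Genes were kept by filterByExpr (at least 10 counts, 15 in total), normalized by TMM, and fitted with edgeR 4.0.16 (robust quasi-likelihood fit, R 4.3.3), with Benjamini-Hochberg adjustment over all genes and a threshold of 0.05. SE is the estimate over the square root of its F. The slope model held sex. Log2 CPM used a prior count of 2. Neighbours in level were compared by exact permutation. All members were named, with the 3 listed partners and organisers of lowest p, of which 1 partner is not reported here. The p-values measure the spread between these libraries, taken from 29049604 to 46494588 counts each. Alternatives were DESeq2 1.42.0 and its size factors, no filter, percent DIMPLE as a covariate, a replicate block, males by column name, a threshold of 0.1 and leaving out libraries.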

Additional observations from a re-analysis of the deposited data

Results flagged for a closer look

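Cbln2 stood at 35.4 CPM in male replicate 2, far from the other males at 16.0 to 18.7 CPM. The neurexin gene Nrxn3 stood at 361 CPM in the same library, against 218 to 233 CPM in the other males. Among 20 genes examined in the 4 males these were the ones whose highest or lowest library lay apart by Dixon's criterion, which chance meets in about 1 of 20 groups. The 20 genes are not named here, so this does not mean that no other gene or library stood apart. Arc, for example, stood at 67.7 CPM in male replicate 4 against 16.0 to 24.5 CPM in the other males. The piece of male replicate 2 held 18% DIMPLE, the least of all, and its column has a name beginning with mv.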

How the results depend on the processing

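The number of genes called between males and females, 5, became 12 without a low-count filter, 122 with DESeq2, 27 with the replicate block and 48 against the mb males alone, and leaving out single libraries gave 4 to 26. The number of members called, 0, became 2 with DESeq2 (Nptx1 and Nrn1), 1 with the replicate block (Nrn1, log2 fold change 1.66, edgeR adjusted p = 0.0252) and 1 against the mb males (Nptx1). Replicate numbers were shared by different animals, the same-numbered deviations correlated at 0.31, 0.17 and 0.03, and 3 of 6 libraries correlated best with their own number, so the block is not treated as a pairing. The fold change estimates that changed sign were Cbln2 against the mb males (-0.35), with female replicate 3 left out (-0.10) or male replicate 2 left out (-0.30; single libraries left out gave up to 0.15), and those of Cbln1 (0.013) and Nptx2 (0.017) once percent DIMPLE was a covariate. For the percent DIMPLE slope 15 genes, none of them a member, were called without a low-count filter and 0 in the other settings. C1ql1 changed sign with sex left out (0.070). Leaving out single libraries, slopes ranged from -0.95 to 0.93 for Nptx1, -1.003 to 0.89 for Nptxr, -0.70 to 0.68 for C1ql2, -0.13 to 0.78 for C1ql3, -0.093 to 1.18 for Nrn1, -0.69 to 0.14 for Cbln2 and -0.21 to 0.33 for Cbln4, with the end of changed sign without male replicate 2 and the other end without male replicate 1. The cause of these changes was not tested. The number of neighbouring pairs that differed in level was 0 in all 9 alternatives, and with 6 libraries the design allows less. A pair could pass only if several others had a low p as well, so this 0 is no sign of stability. The number of members whose groups did not overlap, 5, was 5 to 7 over 9 alternatives chosen after the data were seen. Leaving out female replicate 3 and male replicate 3 together was also chosen after seeing the data.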

Other observations

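Bdnf, the gene of a secreted neurotrophin that is also activity-induced, was singled out after its values were seen. It stood at 16.8, 5.60 and 14.8 CPM in female replicates 1 to 3 and at 44.0, 15.8, 32.0 and 65.5 CPM in male replicates 1 to 4, with its lowest and highest library the same as those of Nrn1. This was not particular to Bdnf. Fos, Junb, Nr4a3 and Dusp1 of the same list of immediate early genes were also lowest in female replicate 2 and highest in male replicate 4. Homer1, from that list, is given as a flat example and ranged from 51.2 to 87.1 CPM over the 7 libraries.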
